A study of Homo sapiens with 16 samples.

Results

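The genes described here are 54 ribosome biogenesis and nucleolar factors, measured by RNA-seq in MDA-MB-231 cells, a human triple-negative breast cancer line. They were taken by symbol for the roles their proteins are known to have, at a time when earlier results of these data were known. All 54 were found among the 60719 genes counted across the series. By role they were 8 proteins of the small nucleolar ribonucleoproteins (snoRNPs), 8 nucleolar hub proteins, 20 factors of the small ribosomal subunit and 18 factors of the large subunit. Parental 231 cells were compared with 231:TKO cells, which carry a CRISPR/Cas9 knockout of TXNIP and were grown out from single cells, so that a property of the isolated clone and an effect of the knockout cannot be told apart. Untreated parental 231 and untreated 231:TKO cells were sequenced as 2 samples each. Both populations were also transfected for 48 hours with a non-targeting siRNA (siNT) or with an siRNA against MYC (siMyc), with 3 samples in each of these 4 groups. The study calls its replicates biological, but the sample labels do not say that they were separate cultures.

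Ribosomes are built in the nucleolus, where RNA polymerase I transcribes the ribosomal RNA precursor and a large set of assembly factors folds, modifies and cuts it. Box C/D snoRNPs, made of NOP56, NOP58, fibrillarin (FBL) and the protein product of SNU13, methylate the precursor, while box H/ACA snoRNPs, made of DKC1, NHP2, NOP10 and GAR1, convert uridines to pseudouridine. Genes of this pathway are textbook targets of MYC, a transcription factor that pairs with MAX on the E-box CACGTG, and TXNIP is an arrestin-family protein that limits glucose uptake and binds thioredoxin.

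Because the siMyc comparisons bear on genes that MYC is known to bind, the promoters of the members were searched for the letters CACGTG, which read the same on both strands, in RefSeq windows from 250 bases before to 50 bases after each start (GRCh38.p14). Windows were given for 45 of the 54 members (all but NOP58, NOLC1, TCOF1, RRP12, BOP1, RRS1, RRP1B, DDX18 and URB2), and 25 of these 45 (55.6%) held at least 1 match. For comparison, 19 of 75 other genes of the pathway (25.3%) and 2396 of all 27305 symbols with a window (8.77%) held the letters. By role the matches were in 4 of 7 snoRNP genes, 4 of 6 nucleolar hub genes, 11 of 19 small subunit genes and 6 of 13 large subunit genes. The 3 members with 2 matches are shown because they carry the most; capitals mark each CACGTG. IMP4 (a small subunit processome protein, chr2:130342647-130342946, plus strand) has matches that begin 203 bases before and 16 bases after the start, NOP10 (chr15:34343087-34343386, minus strand) 170 and 11 bases before it, and UTP18 (another processome protein, chr17:51260296-51260595, plus strand) 89 bases before and 5 bases after it.

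IMP4: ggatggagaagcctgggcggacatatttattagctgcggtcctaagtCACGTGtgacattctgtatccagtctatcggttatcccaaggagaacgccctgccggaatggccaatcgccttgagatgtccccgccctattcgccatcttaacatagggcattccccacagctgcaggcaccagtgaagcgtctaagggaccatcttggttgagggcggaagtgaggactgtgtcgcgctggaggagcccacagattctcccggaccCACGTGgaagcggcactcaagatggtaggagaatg

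NOP10: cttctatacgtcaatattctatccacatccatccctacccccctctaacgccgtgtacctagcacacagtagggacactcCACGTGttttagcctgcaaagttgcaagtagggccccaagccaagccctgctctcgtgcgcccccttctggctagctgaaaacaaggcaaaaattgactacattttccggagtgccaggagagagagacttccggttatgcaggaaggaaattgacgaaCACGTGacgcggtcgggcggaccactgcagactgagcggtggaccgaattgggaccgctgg

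UTP18: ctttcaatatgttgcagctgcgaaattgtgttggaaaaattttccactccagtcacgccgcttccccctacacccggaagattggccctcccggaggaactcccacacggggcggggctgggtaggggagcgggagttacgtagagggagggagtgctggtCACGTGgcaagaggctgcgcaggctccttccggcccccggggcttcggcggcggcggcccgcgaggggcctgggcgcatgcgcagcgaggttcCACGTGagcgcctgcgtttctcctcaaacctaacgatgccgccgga

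The 16 libraries held 18953668 to 59799444 counted reads, and between 3.55% and 5.85% of them fell on the 10 highest genes of a library. TXNIP had 276 and 277 CPM (counts scaled to the size of the library, with TMM factors) in untreated parental 231 cells and 12.7 and 46.5 CPM in untreated 231:TKO cells (log2 fold change -3.29, adjusted p = 0.0588), and with siRNA it lay between 6.70 and 10.1 CPM in 231:TKO against 296 to 470 CPM in parental 231 cells. MYC was at 124, 147 and 134 CPM in 231:TKO+siNT and 58.8, 58.5 and 57.9 CPM in 231:TKO+siMyc (log2 fold change -1.21, adjusted p = 1.7e-11), and at 123, 125 and 129 CPM in parental 231+siNT and 64.8, 64.9 and 67.3 CPM in parental 231+siMyc (-0.96, adjusted p = 0.0296). VIM, CD44, CAV1, AXL and EGFR, which are high in basal-like breast cancer lines, were high in all 16 libraries, and of the luminal markers ESR1, PGR and FOXA1 were at most 0.30, 0.0819 and 0.635 CPM. GATA3, another luminal marker, was present at 11.3 to 31.5 CPM in all libraries, and CDH1 (E-cadherin) was at 4.04 to 9.40 CPM in parental 231 and 0.274 to 1.08 CPM in 231:TKO libraries. The untreated libraries were single reads and those with siRNA read pairs. The siRNA libraries of parental 231 cells had another prefix in their library names than those of 231:TKO cells. They also had a later gene annotation (Ensembl release 104 in place of 102). In the siRNA set the population therefore cannot be told apart from the prefix or the annotation. The labels do not say what the prefix stands for. A pair of libraries stood apart from the rest of their groups, parental 231+siNT replicate 1 and parental 231+siMyc replicate 3. The main counts of members called that rest on them are given with and without them. Most values of single members, and the correlations between the populations, are given only with them. The untreated 231:TKO replicates differed from each other by more than 1 log2 unit at 559 of 13448 genes, against 3 genes between the untreated parental 231 replicates.

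The first question was what a lower MYC level does to these genes in 231:TKO cells. With siMyc 53 of the 54 members fell and none rose, in the quasi-likelihood test of edgeR with p adjusted by Benjamini-Hochberg over every gene in the fit (threshold 0.05). Over all 22450 genes tested, 13.9% were lower and 13.3% higher. The members' median log2 fold change was -0.67, against 0.01 over all genes, and the single values ran from -1.33 for BOP1 to -0.09 for NOP10. For the 53 that fell, every siMyc library lay below every siNT library. The share of all genes with such a separation is not given for this comparison, so the separation is no evidence beyond the calls. Together the members took 0.659% to 0.691% of all counts in the 231:TKO+siNT libraries and 0.425% to 0.443% in the 231:TKO+siMyc libraries. These are relative levels, and in bulk RNA less RNA of these genes per cell cannot be told apart from a change in the mixture of cells or in the rest of the RNA.

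NOP56, NOP58 and FBL, of the box C/D snoRNP, all fell in 231:TKO cells. NOP56 (ENSG00000101361, chr20:2652593-2658393 in GRCh38), a scaffold subunit, had 161, 155 and 164 CPM with siNT and 90.9, 89.7 and 89.9 CPM with siMyc, a log2 fold change of -0.82 ± 0.05 (SE, n = 3 per group, adjusted p = 1.37e-10). FBL, the methyltransferase, went from 165, 159 and 159 CPM to 98.2, 99.4 and 91.3 CPM, or -0.74 ± 0.05 (adjusted p = 1.2e-09). NOP58, the paralogous scaffold, fell by 0.64 on the log2 scale. In the box H/ACA snoRNP, DKC1, the pseudouridine synthase, fell from 169, 159 and 169 CPM to 96.3, 89.7 and 97.1 CPM (-0.81 ± 0.05, adjusted p = 4.07e-10). NHP2 and GAR1, its partners, fell by 0.70 and 0.51 on the log2 scale.

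NOP10 (ENSG00000182117, chr15:34341719-34343136), the smallest subunit of the H/ACA particle and the member with the shortest gene model at 507 bases, was the exception. It had 104, 106 and 108 CPM with siNT and 105, 100 and 95.1 CPM with siMyc. The groups overlapped, and its log2 fold change was -0.09 ± 0.05 (adjusted p = 0.255). Its promoter is one of those printed above with 2 CACGTG matches.

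All 8 nucleolar hub proteins fell in 231:TKO cells, by a median of 0.75 on the log2 scale. DDX21, a helicase of the nucleolus, had the largest fall among them, from 346, 322 and 352 CPM to 159, 157 and 178 CPM (-1.04 ± 0.06, adjusted p = 3.16e-11). Nucleolin (NCL), an abundant protein that binds the ribosomal RNA precursor and chromatin, went from 774, 729 and 799 CPM to 463, 479 and 503 CPM (-0.67 ± 0.05, adjusted p = 2.64e-09). Nucleophosmin (NPM1), a chaperone that forms the granular part of the nucleolus, went from 1541, 1441 and 1547 CPM to 969, 1024 and 1076 CPM (-0.56 ± 0.05, adjusted p = 3.05e-08). NPM1 was thus among the members with the smaller falls although its groups were well apart. NPM1 has 49 pseudogenes by symbol and some of its reads may be placed on them.

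All 20 small subunit factors fell in 231:TKO cells, with a median of -0.61. BYSL (bystin, ENSG00000112578, chr6:41921499-41933046), which acts late in small subunit assembly, was at 63.8, 65.4 and 62.4 CPM with siNT and 31.8, 30.1 and 28.6 CPM with siMyc (-1.08 ± 0.06, adjusted p = 5.99e-11). PDCD11, a scaffold of the small subunit processome, fell by 1.02 on the log2 scale. At the other end of this group stood IMP3, with a fall of 0.21 on the log2 scale, and UTP18, with 0.27.

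All 18 large subunit factors fell as well, with a median of -0.71. BOP1 (ENSG00000261236, chr8:144262045-144291438) forms the PeBoW complex of large subunit maturation with PES1 and WDR12. It went from 103, 103 and 99.2 CPM to 42.8, 42.4 and 35.6 CPM, the largest fall of the 54 (-1.33 ± 0.06, adjusted p = 1.7e-11). WDR12 fell by 0.69 on the log2 scale and PES1 by 0.50, so the 3 subunits of this complex fell by unequal amounts. NOP16, a nucleolar factor of large subunit assembly, had 47.2, 42.6 and 43.96 CPM with siNT and 19.98, 17.4 and 18.5 CPM with siMyc (-1.26 ± 0.07, adjusted p = 5.26e-11).

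**Figure D1:**
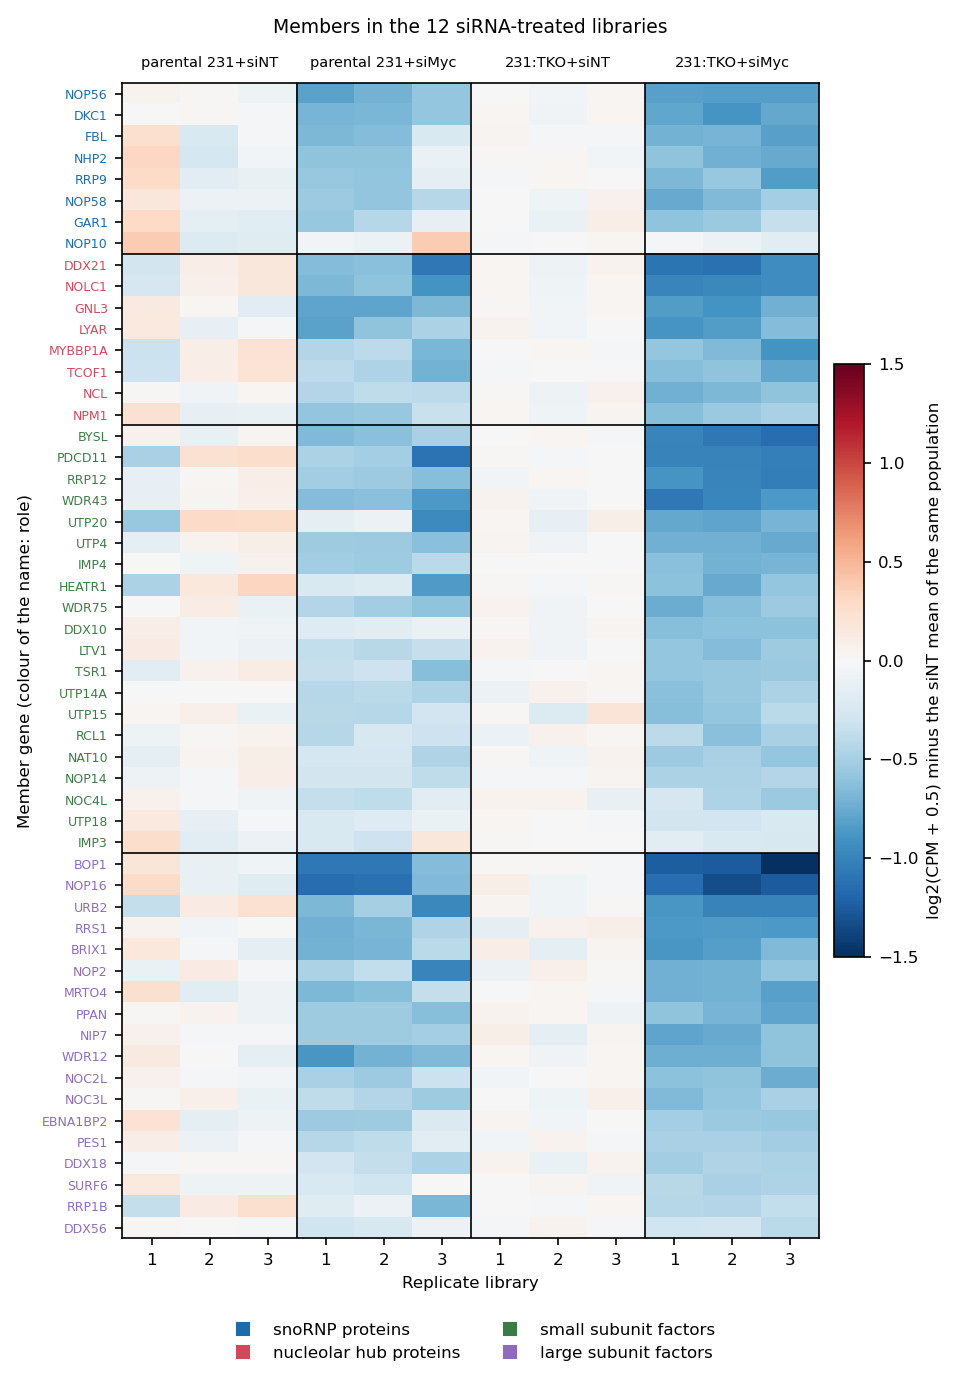
Heat map of the 54 members (lines, by role) in the 12 siRNA libraries (columns). Colour is log2(CPM + 0.5) minus the mean of the siNT libraries of the same population. The 3 231:TKO+siMyc libraries are low for 53 members and near 0 for NOP10, and parental 231+siNT replicate 1 and parental 231+siMyc replicate 3 differ from the other libraries of their groups.

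The same question was asked in parental 231 cells, where the pair of libraries that stood apart widened the spread. There 11 of the 54 members passed the test, all lower (NOP56, DKC1, GNL3, UTP4, WDR43, RRP12, BYSL, NIP7, PPAN, BOP1 and WDR12). Of all 23728 genes tested 0.354% were lower and 0.24% higher. The members' median was -0.52, against a median of 0.00 over all genes. An unadjusted p under 0.05 in the lower direction was seen for 46 members, and in either direction for 3463 of the 23728 genes. For 44 members every siMyc library was below every siNT library, as was the case for 11.1% of all genes. With a term for the pair added to the fit after the data were seen, 53 of 54 members fell (13.1% of all genes were then lower and 13.7% higher) and the median remained -0.52. With the 2 libraries left out, 53 members also fell (10.9% of all genes were lower), again with a median of -0.52. The member outside both sets of calls was NOP10, at 0.06 with the term for the pair.

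BOP1 was at 162, 132 and 137 CPM in parental 231+siNT and 67.8, 68.0 and 91.3 CPM in parental 231+siMyc, a log2 fold change of -0.95 ± 0.15 (n = 3 per group, adjusted p = 0.0474). Its highest value in each group came from a library of the pair. WDR12 had 41.5, 37.9 and 34.5 CPM with siNT and 20.4, 22.9 and 23.7 CPM with siMyc (-0.79 ± 0.11, adjusted p = 0.04). PES1, the remaining subunit of PeBoW, did not pass, at -0.34 ± 0.11 (adjusted p = 0.198). GNL3 (nucleostemin, a nucleolar GTPase) was at 157, 146 and 129 CPM with siNT and 82.7, 82.4 and 89.8 CPM with siMyc (-0.78 ± 0.11, adjusted p = 0.0377). NOP16 had the lowest fold change of the members in parental 231 cells, -1.01 ± 0.18, and missed the threshold (adjusted p = 0.0577). Its values were 54.3, 41.1 and 39.1 CPM with siNT and 19.9, 20.2 and 27.8 CPM with siMyc, so its groups did not overlap.

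Of the snoRNP proteins, NOP56 and DKC1 passed in parental 231 cells. NOP56 had 160.3, 157 and 146 CPM with siNT and 88.6, 94.0 and 103 CPM with siMyc (-0.72 ± 0.10, adjusted p = 0.0377). DKC1 went from 129.6, 130.5 and 127 CPM to 79.3, 80.0 and 86.2 CPM (-0.68 ± 0.09, adjusted p = 0.0377). NOP58 and FBL had log2 fold changes of -0.55 and -0.54 with adjusted p of 0.0751 and 0.184. NHP2 and GAR1, at -0.46 and -0.41, had overlapping groups and adjusted p of 0.316 and 0.312, and with the term for the pair both passed. NOP10 was at 135, 90.3 and 91.8 CPM with siNT and 101, 97.5 and 135 CPM with siMyc, so that its 2 highest values were those of the pair (0.05 ± 0.19, adjusted p = 0.95). Among the hub proteins NCL was at -0.43 (adjusted p = 0.0757) and NPM1 at -0.52 (adjusted p = 0.125), each with groups that did not overlap, and GNL3 was the one that passed. Among the subunit factors, 4 of the 20 of the small and 4 of the 18 of the large subunit passed.

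The 2 libraries of the pair differed from their groups by gene length, and this is a measured fact beside the values above. Over the 54 members the difference of parental 231+siNT replicate 1 from the other 2 libraries of its group had a Spearman correlation of -0.63 with the length of the gene model, and the difference of parental 231+siMyc replicate 3 from its group one of -0.64. Over all genes above 1 CPM both were -0.59. The 13 shortest members, of 507 to 2703 bases, were higher in these libraries by a median of 0.36 and 0.30 log2 units, and the 13 longest, of 5958 to 11439 bases, lower by medians of -0.18 and -0.15. The siMyc fold changes themselves had correlations with length of -0.05 in 231:TKO and -0.08 in parental 231 cells, where each group holds 1 library of the pair. Points in these correlations share their libraries, so no test is attached to them.

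**Figure D2:**
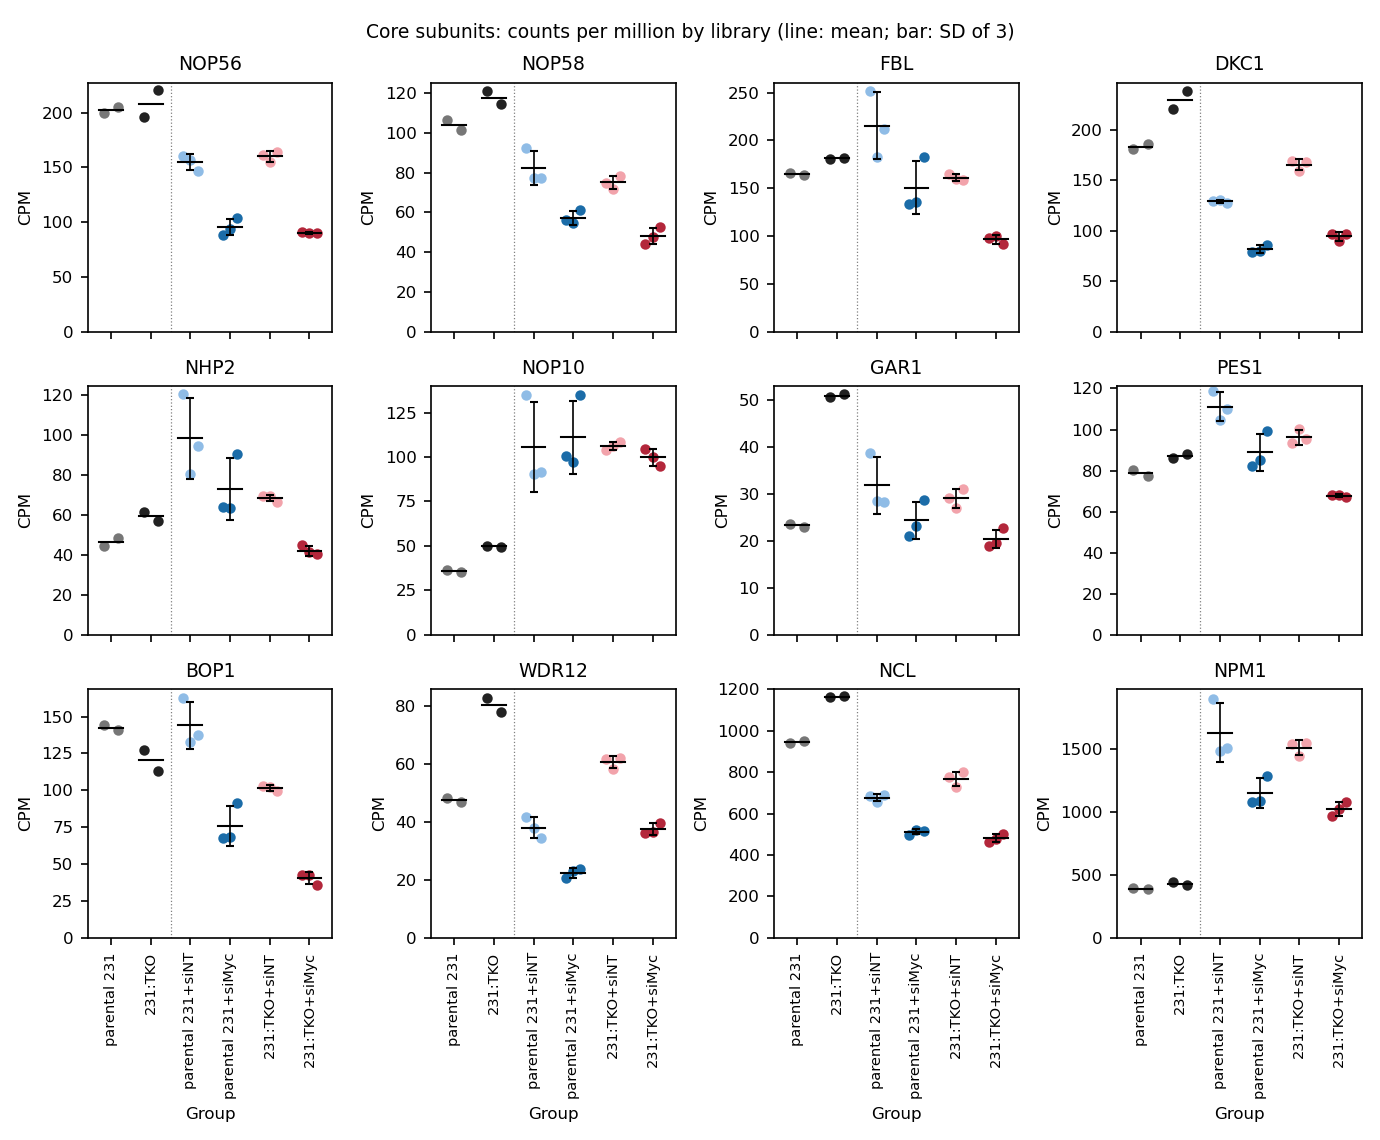
CPM of 12 core subunits in each of the 16 libraries by group, with a line at the group mean and the SD for groups of 3. BOP1, NOP56, DKC1, NCL and NPM1 are lower with siMyc in both populations, and NOP10 lies near 100 CPM in both siRNA arms of 231:TKO.

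Across both populations the members kept much the same order of response to siMyc. In 231:TKO cells the members retained a median of 62.6% of their siNT level (39.7% to 94.2%), and 5 retained less than 50%. In parental 231 cells the median was 69.7% (49.7% to 103%), with 1 member below 50%. These comparisons share no library, and over the 54 members their log2 fold changes had a Pearson correlation of 0.90 and a Spearman correlation of 0.90, as a description over genes that are not independent. The same measures were 0.81 and 0.82 over 12972 genes above 1 CPM.

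Whether the response differed between the populations was tested as the difference of the siMyc responses over the 12 siRNA libraries. No member passed, and neither did any of the 25812 genes tested (0% higher and 0% lower), of which 1039 had an unadjusted p under 0.05. DESeq2 called 1 member, for which no share of all genes is given, so that count cannot be read against the other genes. The difference, 231:TKO minus parental 231, had a median of -0.13 over the members, with 53 of 54 more negative in 231:TKO cells, against 6770 of 12972 genes above 1 CPM. The standard errors were 0.10 to 0.35 log2 units and the 95% intervals of single members, with a median half-width of 0.29, reached from -1.04 to 0.44. These intervals are not adjusted for the number of genes tested. BYSL and DDX10, each at -0.43, RRP12 and BOP1, each at -0.35, and UTP20, at -0.30, exceeded the median half-width in size and did not pass. Differences of the size of this half-width in a single gene were therefore mostly not detectable in this fit. MYC itself had a difference of -0.22 ± 0.11 (unadjusted p = 0.073), and the MYC level left after siMyc was the lower one in 231:TKO cells.

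In that test 4 members had an unadjusted p under 0.05, BYSL, DDX10, RRP12 and BOP1. With the term for the pair these 4 passed, all with the larger fall in 231:TKO cells, where 0.174% of all genes passed in the lower and 0.395% in the higher direction. Their differences were -0.43 for BYSL (adjusted p = 0.000594), -0.43 for DDX10 (0.000594), -0.35 for RRP12 (0.0139) and -0.35 for BOP1 (0.00924). With the pair left out 3 members passed. The share of all genes is not given for that fit, so its count cannot be read against the other genes. DDX10 (ENSG00000178105, chr11:108665069-108940927), a helicase of small subunit assembly, shows the contrast. It had 55.4, 52.5 and 56.1 CPM in 231:TKO+siNT and 35.0, 35.5 and 35.4 CPM in 231:TKO+siMyc. In parental 231 cells it had 89.2, 80.9 and 80.1 CPM with siNT and 72.9, 74.5 and 77.7 CPM with siMyc, which is a log2 fold change of -0.17 ± 0.09 (adjusted p = 0.454) beside -0.63 ± 0.06 in 231:TKO. The siRNA libraries of the populations had different name prefixes and annotations, and the part of these in the differences was not tested.

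**Figure D3:**
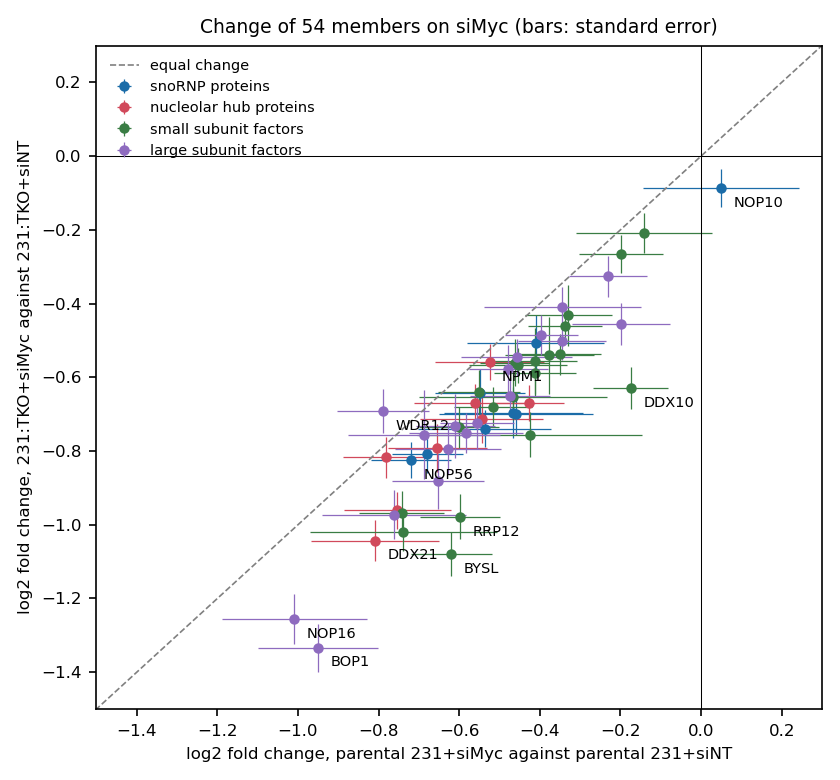
Log2 fold change with siMyc of each of the 54 members in parental 231 (x) against 231:TKO cells (y), with bars of 1 SE and the line of equal response. All members but WDR12 lie below the line, BOP1 and NOP16 are at the lower left and NOP10 is near 0 on both axes.

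Members with and without a CACGTG match in the printed type of promoter window had close values. In 231:TKO cells the median log2 fold change with siMyc was -0.68 for the 25 members with a match and -0.66 for the 20 without, and in parental 231 cells it was -0.47 and -0.50. Of the printed promoters, IMP4 was at -0.68, UTP18 at -0.27 and NOP10 at -0.09 in 231:TKO cells.

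The remaining genes of the pathway, a list of 87 that includes further processome proteins, RNA helicases and factors of late subunit maturation and export, had smaller medians than the members in both populations. Both lists were chosen with earlier results of these data known, so this contrast only describes the lists. In 231:TKO cells 70 of 87 fell with siMyc and none rose, with a median of -0.36, where 13.9% of all genes were lower. In parental 231 cells 3 fell and none rose, with a median of -0.28, where 0.354% of all genes were lower. There 48 had an unadjusted p under 0.05 in the lower direction, as had 3463 of 23728 genes in either direction. The lowest in both were WDR3, a processome protein (-1.13 and -0.76), and NLE1, a large subunit factor (-0.91 and -0.70). At the other end were SBDS, a late large subunit factor (0.03 and 0.13), and TSR3, a modifier of small subunit RNA (0.08 and 0.15), neither of which passed.

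The next question was whether the loss of TXNIP alone goes with a change in these genes. In untreated cells 11 of the 54 members were higher and 2 lower in 231:TKO than in parental 231 cells, where 5.43% of the 19965 genes tested were higher and 4.18% lower. The members' median was 0.09, against 0.00 over all genes, and 39 of the 54 had a positive sign. Among the snoRNP proteins GAR1 and NOP10 were higher, among the hub proteins LYAR was higher and MYBBP1A lower. Of the small subunit factors NOP14, UTP20, WDR75, DDX10 and IMP4 were higher and TSR1 lower, and of the large subunit factors WDR12, DDX18 and BRIX1 were higher. MYC had a log2 fold change of 0.06 here. Each of these groups has 2 samples, and with either parental 231 sample left out no member and no other gene passed. With 231:TKO replicate 1 left out 22 members were higher and 6 lower (18.5% and 19% of all genes), and with replicate 2 left out 26 and 7 (18.1% and 17.9%).

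GAR1 (ENSG00000109534, chr4:109815510-109824740) had 23.5 and 23.0 CPM in parental 231 and 50.6 and 51.3 CPM in 231:TKO cells, the largest difference of the members (1.06 ± 0.08, n = 2 per group, adjusted p = 0.00524). WDR12 (ENSG00000138442, chr2:202874261-203014798) had 48.3 and 46.9 CPM against 82.7 and 77.9 CPM (0.68 ± 0.07, adjusted p = 0.0106). LYAR, a nucleolar zinc finger protein, had 69.1 and 71.3 CPM against 128 and 102 CPM (0.64 ± 0.12, adjusted p = 0.0348). In each case both 231:TKO samples lay above both parental 231 samples, which was a condition for naming members by their fold change. MYBBP1A, a nucleolar protein that binds MYB, had 157 and 156 CPM against 133 and 124 CPM (-0.36 ± 0.06, adjusted p = 0.0314). TSR1, a GTPase-like factor of the small subunit, had 269 and 268 CPM against 228 and 234 CPM (-0.29 ± 0.06, adjusted p = 0.0425). Among the partners of GAR1 and WDR12 in their complexes, NOP10, of the same particle as GAR1, was also higher (0.39 ± 0.07, adjusted p = 0.0367), and 4 others did not pass, at 0.25 for DKC1, 0.28 for NHP2, -0.32 for BOP1 and 0.07 for PES1.

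Neighbouring genes moved with several of these members. In the fixed 20 Mb window that holds GAR1 the median over the other genes was 0.53 on the log2 scale. It was 0.45 for LYAR and NOP14, 0.54 for DDX18, 0.45 for IMP4, 0.42 for WDR75, 0.37 for DDX10 and 0.28 for BRIX1. In the window of MYBBP1A and TSR1, on chromosome 17, it was -0.36. The windows of WDR12, UTP20 and NOP10 were at 0.07, 0.03 and 0.01. WDR12 and UTP20 lie close to an edge of their windows. The window next to that of WDR12, which holds WDR75, was at 0.42. With the median of its window subtracted for each gene, 6 members were higher and none lower, beside 4.28% and 4.65% of all genes. GAR1 still passed at 0.52 and WDR12 at 0.60, while LYAR was at 0.22 (adjusted p = 0.19), MYBBP1A at -0.01 and TSR1 at 0.05.

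With siNT, 12 members were higher and 11 lower in 231:TKO than in parental 231 cells, beside 16.1% higher and 20.7% lower of the 23310 genes tested. The members' median was 0.03 and that of all genes -0.03, so the members as a list stood close to the rest of the genes. MYC had a log2 fold change of 0.07. Of the 8 snoRNP proteins 3 were lower (FBL, RRP9 and NHP2) and DKC1 was higher. NHP2, the RNA-binding subunit of the H/ACA particle, had 120, 80.5 and 94.3 CPM in parental 231+siNT and 69.5, 69.2 and 66.6 CPM in 231:TKO+siNT (-0.55 ± 0.13, n = 3 per group, adjusted p = 0.00626), with the highest value in the library that stood apart. DKC1 had 129.6, 130.5 and 127 CPM in parental 231+siNT and 169, 159 and 169 CPM in 231:TKO+siNT (0.33 ± 0.08, adjusted p = 0.0078).

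Of the small and large subunit factors, BYSL differed most. It had 130, 114 and 127 CPM in parental 231+siNT and 63.8, 65.4 and 62.4 CPM in 231:TKO+siNT (-0.98 ± 0.09, adjusted p = 8.43e-06). The other genes in its window had a median of -0.39. UTP14A, a processome protein, was at -0.65 ± 0.09 (adjusted p = 0.000164), DDX10 at -0.64 ± 0.09 (adjusted p = 0.000203) and BOP1 at -0.53 ± 0.10 (adjusted p = 0.0013). On the higher side stood WDR12, with 41.5, 37.9 and 34.5 CPM in parental 231+siNT and 61.6, 58.3 and 62.0 CPM in 231:TKO+siNT (0.65 ± 0.10, adjusted p = 0.000339). BOP1 and WDR12, partners in PeBoW, thus differed in opposite directions, while PES1 did not pass (-0.24, adjusted p = 0.055). The other genes in the window of BOP1 had a median of -0.27, and those in the window of WDR12 one of 0.06. TCOF1 (treacle, which links RNA polymerase I transcription to snoRNP function) was at 0.61 ± 0.12 (adjusted p = 0.00255) and UTP20, a processome protein, at 0.75 ± 0.21 (adjusted p = 0.019). UTP20 had 29.9, 54.1 and 54.02 CPM in parental 231+siNT, the lowest in the library that stood apart, and 80.8, 72.5 and 84.0 CPM in 231:TKO+siNT.

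The siNT comparison also moved with gene length. Over the 54 members its log2 fold change had a Spearman correlation of 0.44 with the length of the gene model (0.28 over all genes above 1 CPM), with a median of 0.01 for the 13 shortest and 0.31 for the 13 longest members. In the untreated comparison that correlation was 0.06. Without parental 231+siNT replicate 1, 22 members were higher and 13 lower, beside 22.4% and 25.8% of all genes, and the median was 0.09. The part of whatever the library name prefix stands for, the annotation and the length of the genes in these calls was not tested.

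**Figure D4:**
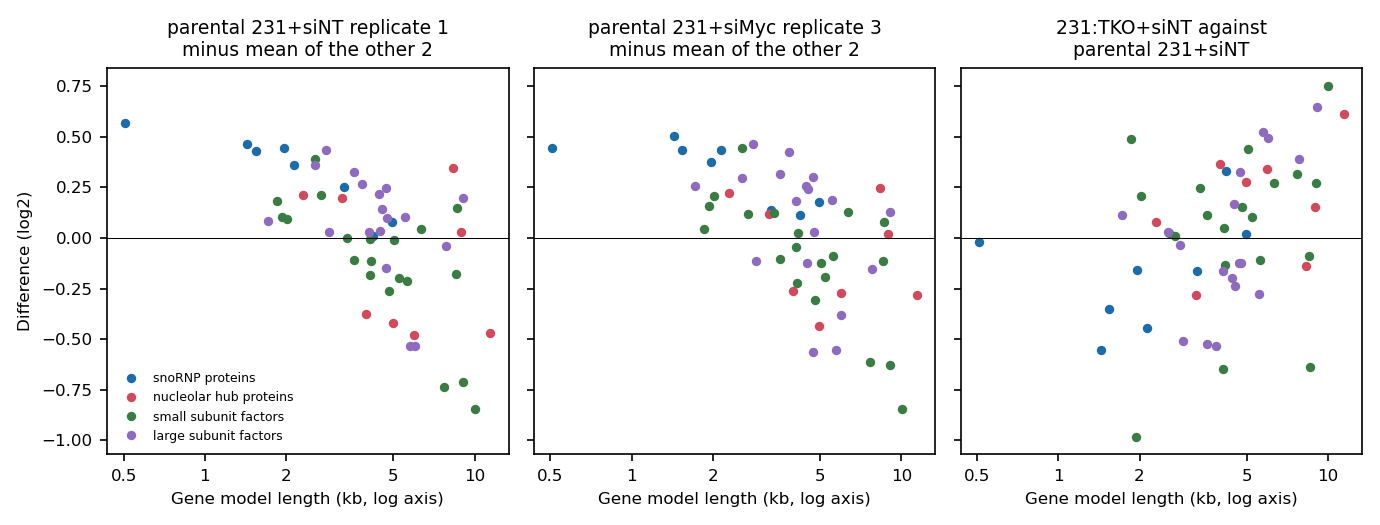
Length of the gene model (kb, log axis) against a difference in log2 units for each of the 54 members. The panels show parental 231+siNT replicate 1 minus the other 2 libraries, parental 231+siMyc replicate 3 minus the other 2, and the log2 fold change of 231:TKO+siNT against parental 231+siNT; the first and second fall with length (Spearman -0.63 and -0.64) and the last rises (0.44).

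The untreated and siNT comparisons share no library, and 7 members passed in both, which is 7 of the 13 called in untreated cells and 7 of the 23 called with siNT (53.8% and 30.4%). Over all genes tested in both, 1085 were called in both, 56.8% of the calls in untreated cells and 14% of those with siNT, and 75.1% of these 1085 had the same sign. Of the 7 members, 6 had the same sign, all higher in 231:TKO (UTP20, WDR75, IMP4, WDR12, DDX18 and BRIX1), and DDX10 had opposite signs. In the windows that hold IMP4, DDX18, WDR75 and BRIX1 the other genes were also higher in both comparisons, with siNT medians of 0.59, 0.48, 0.33 and 0.33. The windows of WDR12 and UTP20, which lie close to an edge of them, had siNT medians of 0.06 and -0.26.

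Whether the effect of the knockout differed between siNT-treated and untreated cells was tested over 10 libraries. In these the treatment cannot be told apart from single reads against read pairs. Both untreated groups shared a library name prefix and an annotation, but with siNT the populations differed in both. The treatment cannot be told apart from that difference either. In this test 2 members passed with a more positive and 7 with a more negative effect under siNT, where 6.2% and 7.91% of 25112 genes did so. The members' median was -0.14. Over the 54 members this difference had a Spearman correlation of 0.44 with the length of the gene model (0.27 over all genes above 1 CPM). Its median was -0.30 for the 13 shortest and -0.03 for the 13 longest members. The part of gene length in these calls was not tested. GAR1 differed most, by -1.22 ± 0.20 (adjusted p = 0.000745), since it was higher in untreated 231:TKO cells and had 29.1, 27.0 and 31.1 CPM in 231:TKO+siNT against 38.8, 28.5 and 28.2 CPM in parental 231+siNT. DDX10 differed by -1.08 ± 0.14 (adjusted p = 0.000128). It had 58.4 and 53.98 CPM in untreated parental 231 and 80.6 and 79.6 CPM in untreated 231:TKO cells, an order opposite to the one with siNT. BYSL differed by -0.97 ± 0.15 (adjusted p = 0.000609), with an untreated log2 fold change of -0.02. The others were NHP2 (-0.84), EBNA1BP2, a large subunit factor (-0.75), UTP14A (-0.66), LYAR (-0.56), TCOF1 (0.60) and MYBBP1A (0.70). With the window medians subtracted, GAR1, LYAR and MYBBP1A no longer passed (-0.57, -0.18 and 0.40).

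**Figure D5:**
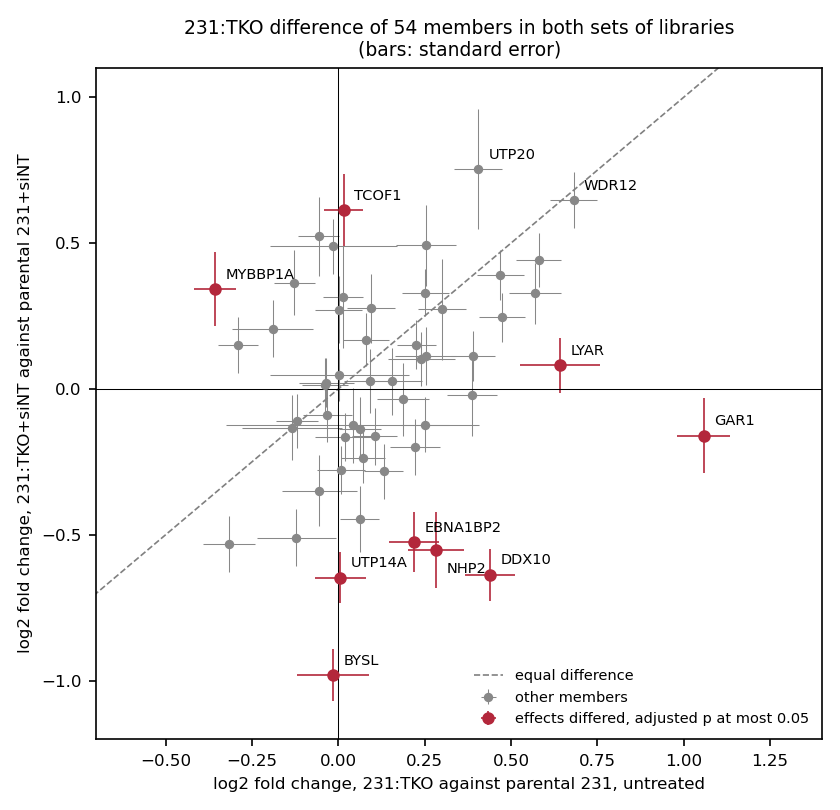
Log2 fold change of 231:TKO against parental 231 for each of the 54 members in untreated (x) and siNT-treated cells (y), with bars of 1 SE. The 9 members in red passed the test of the difference between these effects; GAR1 is far to the right near 0 on the y axis, and BYSL and DDX10 are the lowest.

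Levels between members can be compared only per length, and only within a set of libraries. In untreated parental 231 cells DDX21 had the highest level per kb of gene model at 114 CPM per kb, followed by NCL at 106, and in 231:TKO cells NCL led at 131 and DDX21 had 128. In the siRNA libraries NOP10 and NPM1 led, with 208 to 209.5 and 182 to 196 CPM per kb with siNT, where NOP10 had 71.2 and NPM1 46.9 in untreated parental 231 cells. The untreated and siRNA sets differ in read layout, and its part in these levels was not tested. NOP2, a methyltransferase of the large subunit, was lowest in every group (0.37 to 1.07 CPM per kb). Another gene model on the same strand overlaps NOP2, so its counts are uncertain. PPAN likewise overlaps a read-through gene with P2RY11.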

How the data were processed

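The deposited values were raw counts per gene, 1 table per library. According to the study's methods and the labels, the authors ran STAR on GRCh38 and then featureCounts 1.6.3 on the reverse strand (strand setting 2), with Ensembl release 102 or, for the siRNA libraries of parental 231 cells, 104. Of the 54 members, 52 had a gene model of the same length in both releases. Members were matched by symbol to the reference, BOP1 by its coordinates. The members and gene lists were chosen with earlier results of these data known.

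Genes with more than 5 counts summed over a comparison were kept, TMM factors were set, and edgeR 4.0.16 (R 4.3.3) fitted each comparison on its own libraries with the robust quasi-likelihood method. P-values were adjusted by Benjamini-Hochberg over all genes tested, with a threshold of 0.05. Standard errors are the log2 fold change divided by the square root of F. The method was tested on simulated data. Members named are the core subunits, per comparison up to 3 called members with groups apart at each end of the fold changes, and those passing a test of a difference between effects. PDCD11, DDX21, IMP3, UTP18, IMP4, NOP16 in parental 231 cells, RRP12 and the further members called were named after their values were seen. Windows were fixed segments of 20 Mb along each chromosome, not centred on the member, and needed at least 15 other genes. DESeq2 1.42.0 and the settings in the closing section were alternatives, and the fits with a term for the pair of libraries, or without it, were added after seeing the data. Replicate numbers did not pair the samples, since same-numbered samples did not deviate together in every pair. Depth limits precision for counting only, and intervals cover the spread of these samples.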

Additional observations from a re-analysis of the deposited data

Results flagged for a closer look

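The difference of the 231:TKO effects between siNT-treated and untreated cells (edgeR, siNT minus untreated, log2 units) passed the test in 9 members: NHP2 -0.84, GAR1 -1.22, TCOF1 0.60, LYAR -0.56, MYBBP1A 0.70, UTP14A -0.66, BYSL -0.97, DDX10 -1.08 and EBNA1BP2 -0.75. Treatment, read layout, library name prefix and annotation cannot be told apart in these differences. They also moved with gene length (Spearman correlation 0.44 over the 54 members). Without parental 231+siNT replicate 1, which stood apart from its group, 5 members had a more positive and 14 a more negative effect, beside 7.44% and 13.2% of all genes (6.2% and 7.91% with it). Groups here hold 2 or 3 samples, so single samples were not tested as outliers.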

How the results depend on the processing

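The fall of 53 members with siMyc in 231:TKO cells was the count under every alternative run but 1 fit of all 12 siRNA libraries, which called 48 with a median of -0.65; with single libraries left out the count was 53 to 53 and the median -0.68 to -0.67. In parental 231 cells the number lower was 36 with DESeq2, 6 with DESeq2 size factors, 21 with no filter, 0 at an adjusted p of 0.01, 42 in the fit of 12 libraries, and 53 with a term for the pair or with the pair left out. With single libraries left out the number was 0 to 13, at 0 without parental 231+siNT replicate 2 or 3 or parental 231+siMyc replicate 1 or 2, and the median -0.57 to -0.51. The share of all genes called lower moved as well, from 0.354% in the fit reported to 13.1% with the term for the pair. Counts in this section without a share of all genes beside them cannot be read against the other genes. The difference of the siMyc responses had 1 member lower with DESeq2, 4 with the term for the pair and 3 with the pair left out; its median was -0.17 with DESeq2, with its size factors and with the pair left out, and -0.19 to -0.11 over single libraries left out, with 0 to 0 calls. In untreated cells the counts higher and lower were 1 and 0 at an adjusted p of 0.01 (0.581% and 0.566% of all genes). They were 6 and 0 with window medians subtracted (4.28% and 4.65% of all genes, median 0.10). Library totals alone gave a median of 0.0459. With single libraries left out the counts there were 0 to 26 and 0 to 7 and the median 0.0776 to 0.0996; without 231:TKO replicate 1 they were 22 and 6 (18.5% and 19% of all genes), without replicate 2 they were 26 and 7 (18.1% and 17.9%), and without either parental 231 replicate no gene at all was called. With siNT the median was 0.0447 with DESeq2 and with its size factors, 0.0380 for genes of the same length in both releases, 0.0453 with more than 5 counts in every library and 0.0904 with library totals alone. It was 0.0710 in the fit of 12 libraries with a term for the pair, which called 22 higher and 14 lower (19.6% and 24.3% of all genes). At an adjusted p of 0.01, 6 were higher and 8 lower (10.6% and 14.2% of all genes). Over single libraries left out the counts were 6 to 22 higher and 7 to 13 lower, and the median -0.00762 to 0.0911, below 0 without parental 231+siNT replicate 2. For the difference of the knockout effects the members with a more positive effect numbered 5 with DESeq2, with its size factors and with more than 5 counts in every library, 6 with library totals alone, 4 with no filter or with thinned counts and 0 at an adjusted p of 0.01, and the median was -0.0342 with library totals alone and -0.0941 with window medians subtracted. Over single libraries left out it was 0 to 5 more positive, 5 to 14 more negative and a median of -0.16 to -0.0948; without parental 231+siNT replicate 1 it was 5 and 14. For single members named, 981 values kept their side of the threshold, 85 lost the call, 43 gained one and 3 changed sign with the test passed in the setting or in the fit reported: TSR1 in untreated cells with window medians subtracted (0.0544), and NOP10 with siNT without parental 231+siNT replicate 1 (0.21; the range over single libraries left out was -0.119 to 0.21) and in the fit with a term for the pair (0.17). The cause of these changes was not tested.

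With the replicate number as a block, 4 members were higher and 0 lower in untreated cells (2.62% and 1.91% of all genes). With this block 0 members were lower with siMyc in parental 231 cells and the siNT median was 0.0380. The numbers did not pair the samples: correlations of the deviations of same-numbered samples were 0.02 in untreated cells and -0.81, 0.63 and -0.75 in parental 231 cells with siRNA, and parental 231+siNT replicate 1 correlated best with parental 231+siMyc replicate 3 (0.90).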
